A study of Mus musculus with 9 samples.

Results

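The proteasome is the protease that degrades most ubiquitin-tagged proteins of the cell. Its constitutive subunits, and the proteins that assemble and regulate it, are encoded by genes with Psm symbols. Members were the protein-coding genes whose mouse symbol, read from the Ensembl identifier, begins with Psma, Psmb, Psmc, Psmd, Psme, Psmf or Psmg and a digit. The inducible catalytic genes Psmb8, Psmb9 and Psmb10 were left out, and a total of at least 10 counts over the 9 libraries was required. Of the 53801 genes in the files, 46 met this rule. By role, 14 genes encode the 20S core particle, with 7 in the alpha ring, 4 structural and 3 catalytic genes in the beta ring. Another 17 encode the 19S regulatory particle, with 6 ATPases and 3 scaffold or ubiquitin receptor genes in its base and 8 genes in its lid. The others are 4 chaperones of core assembly (Psmg1 to Psmg4), 3 chaperones of 19S assembly (Psmd5, Psmd9, Psmd10), 4 activators (Psme1 to Psme4) and the inhibitor Psmf1. The name also takes in Psma8 (an alpha subunit of the testis), Psme2b (a retrogene copy of Psme2) and Psmc3ip, a factor of meiotic recombination that is not a proteasome subunit. The member with the fewest counts was Psmc3ip (175), and the thymus-specific Psmb11 stood below the threshold with 0 counts.

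RNA was sequenced from monocytes and macrophages of male C57BL/6J mice, 9 weeks old, in 3 groups of 3 libraries. Stroke was made by permanently closing the distal part of the middle cerebral artery and the common carotid artery, both on the left (dMCAO). The sham blood group came from sham-operated mice, on a day that the methods do not state, and the stroke blood group from mice 5 days after dMCAO, with 1 mouse per library in both. The stroke brain group came from the lesioned hemisphere 5 days after dMCAO, with cells of 5 mice pooled in each library. All cells were sorted as CD11c- Ly6G- CD11b+ CD45high. Blood was fractionated on Ficoll, and brains of perfused mice were dissociated with enzymes and passed over Percoll, so tissue, dissociation and pooling cannot be told apart in any comparison of brain with blood. The gate also does not separate monocyte-derived macrophages from microglia with raised CD45. In bulk RNA, fewer cells of a type and less RNA per cell cannot be told apart.

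As background, the 20S core is a barrel of stacked alpha and beta rings that holds the proteolytic sites inside. The 19S particle binds ubiquitin chains, removes them, and unfolds and threads the substrate into the core with a ring of ATPases. In monocytes and macrophages, inflammatory signals also induce alternative catalytic subunits and the PA28 activator, which shape the peptides shown to T cells.

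Total counts per library ranged from 18475118 to 22623578. Levels are given in counts per 1000000 counts of the library (CPM), and a floor of 3 counts corresponded to between 0.133 and 0.162 CPM. Replicates differed by more than counting error, with a chi-square per degree of freedom between 23.9 and 136 for pairs of libraries in the same group. Stroke brain replicate 1 stood apart from the other brain libraries, and sham blood replicate 1 from the other sham libraries, so counts of members are also given without each of them. All 46 members passed the filter on low counts in each of the 3 comparisons.

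Core genes differed widely in level among themselves. On the scale of CPM per kb of the principal transcript, averaged over the 3 groups, Psma7 (642) stood highest and Psmb3 (395) next, while Psma2 (98.9) and Psmb7 (23.6) stood lowest. Psma7 and Psmb7 held these places in each group, and the next places varied, with Psmb6 (391) above Psmb3 (362) in brain and Psma3 (110.5) below Psma2 (111) in stroke blood. The highest was 27.2 times the lowest on that scale. With merged exons as the length, the ratio was 30.0 and Psmb2 (240.0 CPM per kb) stood highest, so the gene at the top depends on the length used, while Psmb7 stood lowest with both. Exons of Nek6 on the opposite strand cover 34.9% of the principal transcript of Psmb7, and the strand setting of the counting is not stated, so the level of Psmb7 is uncertain. Among the 19S genes, Psmd8 (211 CPM per kb of principal transcript) stood highest and Psmc6 (30.5) lowest, a 6.92-fold range. The lowest 19S gene was Psmd11 (15.8) per kb of merged exons, and in stroke blood alone Psmd1 (30.6 per kb of principal transcript). The median gene of the core had 159.6 CPM per kb and that of the 19S particle 71.0. Of the chaperones of core assembly, Psmg1 stood at 15.3 CPM per kb of principal transcript in sham blood, 13.6 in stroke blood and 16.3 in brain, and Psmg4 at 58.8, 70.98 and 41.9 in the same order. Of the activators, Psme2 (311, 412 and 400.5 CPM per kb in the same order) far exceeded Psme4 (3.68, 5.77 and 3.31). Psma8 was low, between 0.917 and 2.73 CPM, and Psmc3ip reached at most 1.74 CPM. Stroke blood replicate 2 held no count of Psmc3ip, where 3 counts would be 0.139 CPM.

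The median coefficient of variation of members between replicates was 7.93% in sham blood, 13.2% in stroke blood and 11.2% in brain, with maxima of 45.8% (Psma8), 107.5% (Psmc3ip) and 32.3% (Psmc3ip). Within its own group, stroke blood replicate 2 lay lowest, with a median log2 deviation of the members from their group mean of -0.18, and brain replicate 1 likewise at -0.18. The summed level of all 46 members was 6413, 6419 and 6929.97 CPM in sham blood, 7476, 6476 and 7239 CPM in stroke blood, and 6553, 7473 and 7016 CPM in brain. These sums overlapped between every pair of groups, and the map of members by library shows the differences that they hide.

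**Figure D1:**
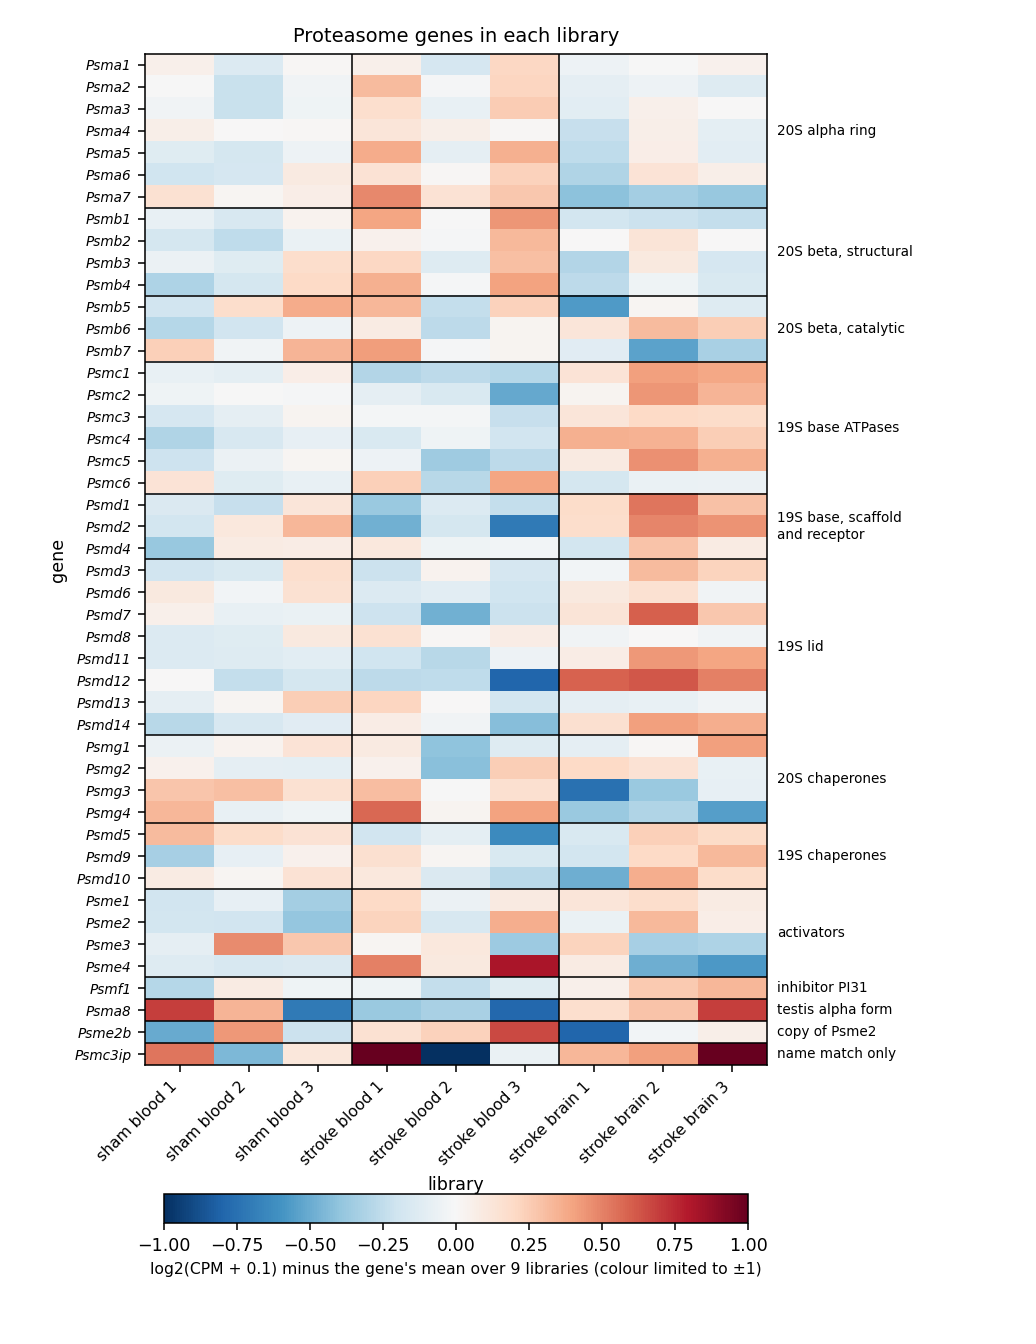
Level of each of the 46 members (top to bottom, by role) in each of the 9 libraries (left to right), as log2(CPM + 0.1) minus the mean of that gene over the libraries. Most 19S genes are red in the 3 brain libraries, while Psma7 and Psmg4 are blue there.

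RefSeq promoters of build GRCm38.p6, from 250 bases before to 50 bases after the start, were at hand for 38 of the 46 members, in 41 windows. The letters TGACNNNGC, the core of the antioxidant response element to which Nfe2l1 and Nfe2l2 bind, were looked for on both strands, as was CCAAT, the box bound by NF-Y. The former occurred in 6 of the 41 member windows (14.6%) and in 12.4% of all 32851 windows, and the latter in 13 member windows (31.7%) and in 37.4% of all. In core genes CCAAT was in 6 of 12 windows (50%), and in 19S genes in 4 of 15 (26.7%). No member window held overlapping matches of both motifs. A match is only a description of the letters. Shown here, 5′ to 3′ with matches in capitals, are promoters of members that rose (Psmd12, Psmc1) and fell (Psma7, Psme4) in the brain against stroke blood. Those of the catalytic genes Psmb5 and Psmb6, neither of them called there, are shown as well. These promoters were chosen after the values were seen.
Psmd12, chr11:107479278-107479577, plus strand: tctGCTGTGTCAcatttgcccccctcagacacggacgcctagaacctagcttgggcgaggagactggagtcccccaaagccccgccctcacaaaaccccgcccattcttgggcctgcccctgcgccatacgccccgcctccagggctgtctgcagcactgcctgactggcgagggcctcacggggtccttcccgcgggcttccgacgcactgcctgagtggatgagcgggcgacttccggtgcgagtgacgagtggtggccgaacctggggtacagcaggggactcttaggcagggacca
Psmc1, chr12:100109952-100110251, plus strand: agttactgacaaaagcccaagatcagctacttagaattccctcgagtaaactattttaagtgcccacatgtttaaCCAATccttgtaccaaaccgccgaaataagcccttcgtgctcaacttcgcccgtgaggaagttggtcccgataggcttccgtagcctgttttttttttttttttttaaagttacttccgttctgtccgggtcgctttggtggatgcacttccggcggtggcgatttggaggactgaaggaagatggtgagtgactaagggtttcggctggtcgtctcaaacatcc
Psma7, chr2:180042415-180042714, minus strand: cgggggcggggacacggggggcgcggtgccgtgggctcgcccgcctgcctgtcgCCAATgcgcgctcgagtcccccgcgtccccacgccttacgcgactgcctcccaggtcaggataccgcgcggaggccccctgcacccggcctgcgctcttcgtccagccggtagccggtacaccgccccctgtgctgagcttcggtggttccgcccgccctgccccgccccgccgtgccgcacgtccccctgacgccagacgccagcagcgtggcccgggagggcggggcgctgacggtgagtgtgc
Psme4, chr11:30771525-30771824, plus strand: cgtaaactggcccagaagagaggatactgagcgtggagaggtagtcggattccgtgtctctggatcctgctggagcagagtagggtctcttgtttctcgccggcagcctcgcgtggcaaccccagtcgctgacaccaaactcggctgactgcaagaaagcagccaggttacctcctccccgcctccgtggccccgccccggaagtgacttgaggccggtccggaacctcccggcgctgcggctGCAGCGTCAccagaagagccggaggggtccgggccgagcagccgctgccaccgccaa
Psmb5, chr14:54617946-54618245, minus strand: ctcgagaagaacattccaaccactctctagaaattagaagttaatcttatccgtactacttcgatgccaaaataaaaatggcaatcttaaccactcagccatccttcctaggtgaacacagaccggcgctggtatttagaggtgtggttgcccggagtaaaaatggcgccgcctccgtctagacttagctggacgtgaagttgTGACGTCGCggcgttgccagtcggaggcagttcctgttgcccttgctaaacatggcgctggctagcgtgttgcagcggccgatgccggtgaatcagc
Psmb6, chr11:70525107-70525406, plus strand: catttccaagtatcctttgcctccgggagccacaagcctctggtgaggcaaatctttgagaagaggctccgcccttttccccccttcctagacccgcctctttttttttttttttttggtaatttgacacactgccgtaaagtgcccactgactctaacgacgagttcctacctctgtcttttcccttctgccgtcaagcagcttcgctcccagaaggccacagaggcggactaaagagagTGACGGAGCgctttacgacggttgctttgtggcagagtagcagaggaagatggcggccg
The capitals in Psmd12, Psme4, Psmb5 and Psmb6 mark TGACNNNGC, read on the opposite strand in Psmd12 and Psme4, and those in Psmc1 and Psma7 mark CCAAT. Rising and falling members thus both include windows with each of these motifs.

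Brain was compared with stroke blood to ask how the sorted cells differ between the injured tissue and the circulation of mice with the same lesion. Few members passed the test in this comparison. Of 17 genes of the 19S particle, 3 were called higher (17.6%), close to the 17.5% of all genes tested. Of 14 core genes, 4 were called lower (28.6%), where 13.1% of all genes were. The other called falls were those of Psmg4 and Psme4. Of 14 core genes, 13 had a lower estimate in brain, and the 14th, Psmb6, was below 0 with upper-quartile scaling (-0.04) and without stroke blood replicate 2 (-0.04). Of 17 genes of the 19S particle, 13 had a higher estimate in brain (14 with library size alone and 10 with upper-quartile scaling), where 53.1% of all genes tested did. The median log2 fold change was -0.42 over core genes, 0.29 over 19S genes, -0.10 over all 46 members (between -0.22 and -0.09 with 1 library left out) and 0.06 over the 13189 genes tested. With library size alone the median was -0.26 over core genes and 0.45 over 19S genes, and with upper-quartile scaling it was -0.57 and 0.14. By edgeR's quasi-likelihood test at a Benjamini-Hochberg adjusted p below 0.05, 3 of the 46 members were called higher, where 17.5% of all genes tested were, and 6 were called lower, where 13.1% of all genes were. Members called in either direction made up 19.6%, against 30.6% of all genes tested. With an absolute log2 fold change above 1 also required, edgeR and DESeq2 each called 0 members, because no estimate passed 1 in size. Of all genes, 21% passed that rule by edgeR and 2976 of 13189 by DESeq2. An unadjusted p below 0.05 by edgeR was found for 18 members (39.1%) and for 42.2% of all genes. DESeq2 called 3 members higher and 9 lower (26.1% in either direction), and 35.2% of all genes.

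Psmd12, a lid subunit of the 19S particle (ENSMUSG00000020720), had the largest rise. It stood at 123, 126 and 116 CPM in the brain libraries and at 68.2, 68.3 and 47.0 CPM in those of stroke blood. Each brain library was above every blood library, sham blood included (81.9, 69.2 and 72.2 CPM). The log2 fold change was 0.84 ± 0.18 (SE, 3 libraries per group; 1.79-fold; edgeR quasi-likelihood, Benjamini-Hochberg adjusted p = 0.00675). Psmd2 (ENSMUSG00000006998), the base scaffold at which shuttle factors dock, stood at 270.45, 335 and 326 CPM in brain and at 171, 211 and 147 CPM in stroke blood. The 2 groups did not overlap, and sham blood (211, 257 and 302 CPM) overlapped both. Its log2 fold change was 0.67 ± 0.17 (SE; 1.59-fold; edgeR quasi-likelihood, adjusted p = 0.0177). The ATPase gene Psmc1 (ENSMUSG00000021178) was at 152, 183 and 181 CPM in brain and at 113, 115 and 114 CPM in stroke blood, where the 3 libraries were nearly alike. It rose by 0.44 ± 0.15 on the log2 scale (SE; 1.36-fold; edgeR quasi-likelihood, adjusted p = 0.0474).

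Most of the 19S particle lay higher in brain on the CPM scale, though only the 3 genes above passed the test. The 3 brain libraries were all above the 3 stroke blood libraries in CPM for 12 of 17 genes, where 31.9% of all genes tested did so. The called Psmd12, Psmd2 and Psmc1 are among these 12 and in the counts by role that follow. Such an order held for 5 of 6 ATPases, 2 of 3 scaffold and receptor genes and 5 of 8 lid genes. For Psmd8 the brain libraries were all below those of stroke blood. With upper-quartile scaling 2 genes of the 19S particle were called higher and 1, a lid gene, lower, where 1919 and 2303 of 13189 genes were. Psmd7, a lid gene, had a log2 fold change of 0.49, Psmd1, a base scaffold, 0.44, and Psmd14, the deubiquitinase of the lid, 0.28, with edgeR adjusted p of 0.0703, 0.0661 and 0.244. Psmc6 (-0.41), Psmd8 (-0.26), Psmd13 (-0.24) and Psmd4 (-0.10) had estimates below 0, which for Psmd4 turned to 0.06 with library size alone. These genes were singled out after their values were seen.

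Of the core genes, 4 were called lower, where 1727 of 13189 genes tested (13.1%) were. With library size alone 2 core genes were lower, where 1287 of all genes were, and with upper-quartile scaling 8, where 2303 were. With TMM scaling the smallest adjusted p was that of Psma7 (ENSMUSG00000027566), an alpha ring subunit and the member with the most counts. Its level was 432, 454 and 442 CPM in brain and 800.5, 634 and 692 CPM in stroke blood. The brain libraries lay close together and below all 6 blood libraries, since sham blood had 639.8, 583 and 601 CPM. Psma7 fell by 0.83 ± 0.15 on the log2 scale (SE; 1.78-fold; edgeR quasi-likelihood, adjusted p = 0.00299). Psmb1 (ENSMUSG00000014769), a structural beta subunit, was at 280.2, 274 and 271 CPM in brain and at 419.6, 318 and 433 CPM in stroke blood. Its groups did not overlap, and it fell by 0.66 ± 0.16 (SE, log2; 1.58-fold; edgeR quasi-likelihood, adjusted p = 0.0142). Psmb4 (ENSMUSG00000005779), the other structural beta gene called, stood at 107, 124 and 115 CPM in brain and at 163, 126 and 168 CPM in stroke blood. Brain replicate 2 came close to stroke blood replicate 2, without overlap, and the fall was 0.56 ± 0.17 with an edgeR adjusted p of 0.0319; as a signed value the log2 fold change was -0.56.

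Of the catalytic beta genes, Psmb7 alone was called. Psmb7 (ENSMUSG00000026750), which encodes the trypsin-like site, was at 24.8, 18.5 and 21.4 CPM in brain and at 35.8, 26.5 and 27.3 CPM in stroke blood. All brain libraries were below all stroke blood libraries, with a log2 fold change of -0.62 ± 0.21 (SE; 1.54-fold lower; edgeR quasi-likelihood, adjusted p = 0.0483), for a gene whose counts are uncertain through Nek6. Psmb5, the chymotrypsin-like subunit, stood at 80.3, 121 and 109 CPM in brain and at 150.4, 101 and 139.6 CPM in stroke blood. Those values overlap, and the log2 fold change of -0.49 ± 0.22 did not pass the edgeR test (adjusted p = 0.115). Psmb6, the caspase-like subunit, had 290.2, 331 and 316 CPM in brain against 282, 222 and 272 CPM in stroke blood. Its brain libraries were the higher ones on the CPM scale, but the scaled log2 fold change was 0.12 ± 0.16 (edgeR adjusted p = 0.609) and was -0.04 with upper-quartile scaling. Over the whole core, the CPM values of the groups did not overlap for 6 genes, 5 lower and 1 (Psmb6) higher in brain, where 17.3% of all genes were lower without overlap. For all members these counts were 15 higher (32.6%) and 10 lower (21.7%), where 31.9% and 17.3% of all genes were.

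Chaperones and activators added a pair of called genes. Psmg4 (ENSMUSG00000071451), which pairs with Psmg3 in assembly of the alpha ring, stood at 23.8, 24.97 and 21.005 CPM in brain and at 45.9, 31.4 and 40.9 CPM in stroke blood. Every brain library was below every blood library, with sham blood at 38.8, 29.2 and 29.9 CPM. The log2 fold change was -0.92 ± 0.21 (SE; 1.89-fold lower; edgeR quasi-likelihood, adjusted p = 0.0093). For its partner Psmg3 the estimate was -0.69 in log2 (edgeR adjusted p = 0.0765), and Psmg1 and Psmg2 had 0.11 (-0.04 with upper-quartile scaling) and -0.05 (0.11 with library size alone). Among chaperones of the 19S base, Psmd5, Psmd9 and Psmd10 had 0.24, -0.04 (0.11 with library size alone) and 0.00 (-0.15 with upper-quartile scaling), none of them called.

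Psme4 (ENSMUSG00000040850), which encodes the activator PA200, was at 27.9, 18.8 and 17.7 CPM in brain and at 37.6, 28.2 and 46.6 CPM in stroke blood. Brain replicate 1 lay just under the lowest stroke blood library, and the other brain libraries far below. The log2 fold change was -0.97 ± 0.26 (SE; 1.95-fold lower; edgeR quasi-likelihood, adjusted p = 0.0213), the largest fall of any called member. Psme1 and Psme2, the subunits of the PA28 ring induced by interferon, overlapped between brain and stroke blood. Their log2 fold changes were -0.11 ± 0.14 (0.05 with library size alone) and -0.20 ± 0.19, with edgeR adjusted p of 0.59 and 0.457. Psme3, the nuclear PA28 subunit, had -0.20 ± 0.20 and the inhibitor gene Psmf1 0.20 ± 0.17, with edgeR adjusted p of 0.474 and 0.392.

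**Figure D2:**
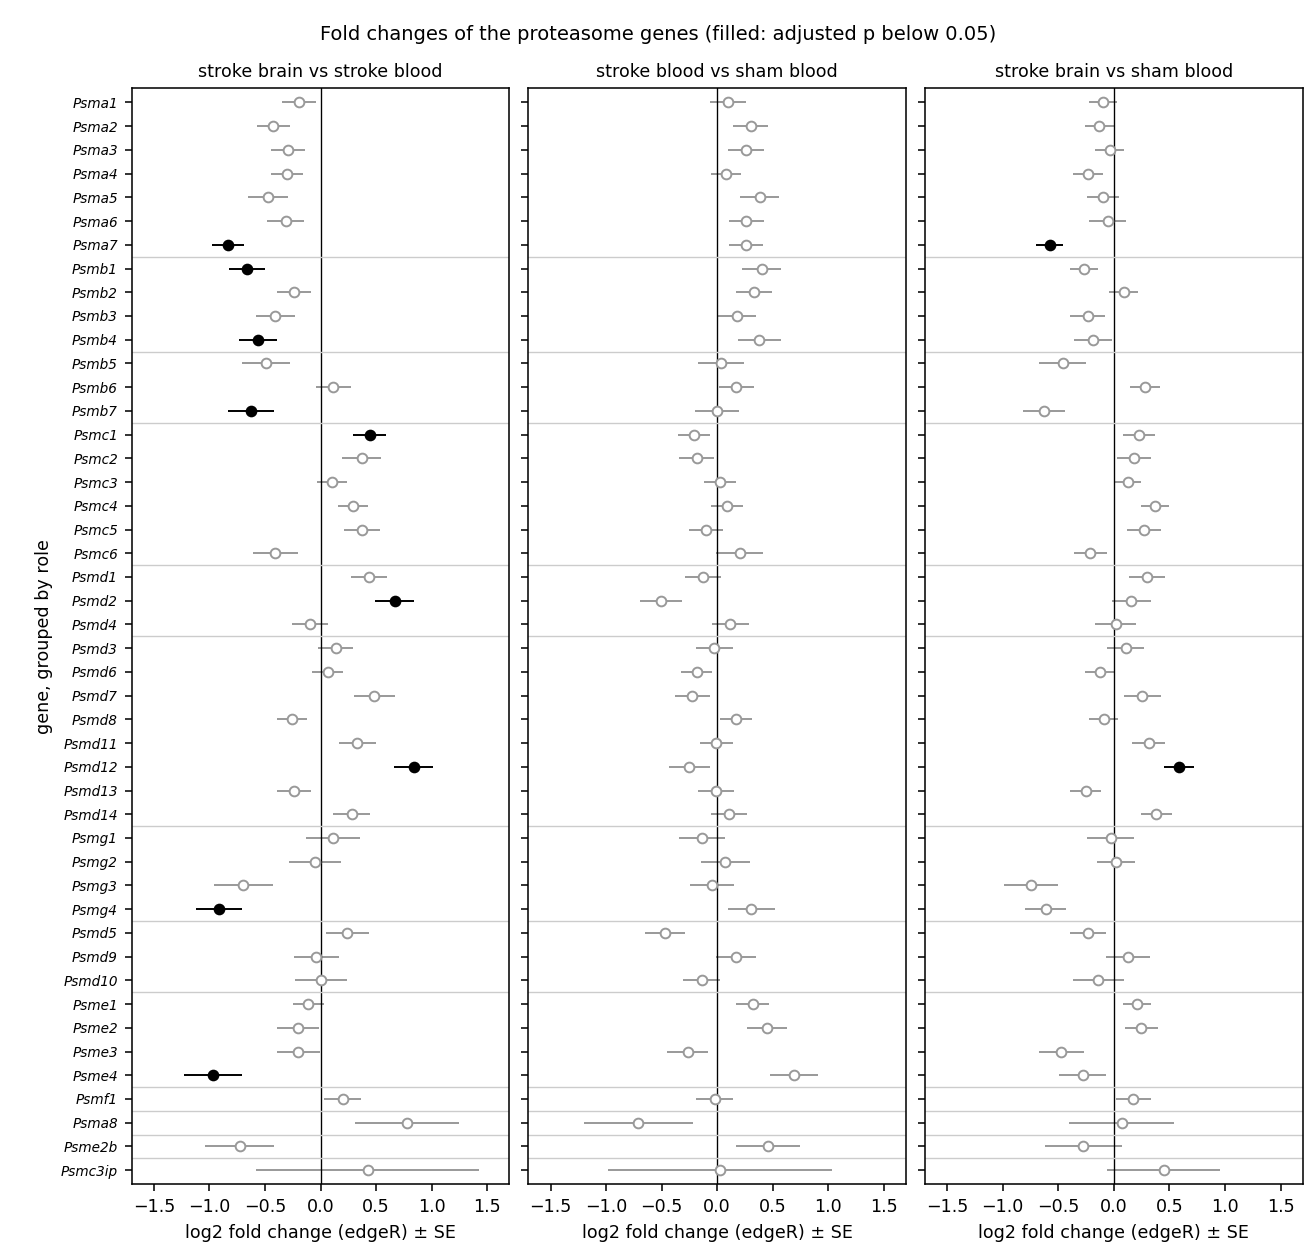
Estimated log2 fold change of each member (points, edgeR with TMM scaling) with its standard error (bars) in the 3 comparisons; filled points have a Benjamini-Hochberg adjusted p below 0.05. In brain against stroke blood, 13 of 14 core genes lie left of 0 (14 with upper-quartile scaling) and 13 of 17 genes of the 19S particle lie right of it (10 with upper-quartile scaling), and in stroke blood against sham blood no point is filled.

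Scaling sets where 0 lies in this comparison. TMM factors computed over all 9 libraries were between 1.06 and 1.09 in brain and between 0.902 and 0.979 in stroke blood. The fit used factors computed from its own libraries only, and its fold changes also lie below the ratio of CPM values. Library size alone moved the median of all genes by 0.16 in log2 fold change, and upper-quartile scaling moved it by -0.15. With library size alone 8 members were called higher and 4 lower, where 2896 and 1287 of 13189 genes were, and the median of members became 0.05. With upper-quartile scaling 2 were higher and 12 lower, where 1919 and 2303 of all genes were. The fold rule was then passed by 2 members and by 2877 of all genes, and the median of members was -0.25. Without brain replicate 1, edgeR called 5 members higher and 5 lower, where 2300 and 1847 of 13788 genes were. The fold rule was then passed by 1 member and by 3014 of all genes, and the median was -0.32 over core genes and 0.37 over 19S genes.

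With any 1 of the 6 libraries dropped, Psmd12, Psma7 and Psmg4 were still called. Psmd2 and Psme4 were no longer called without stroke blood replicate 1, stroke blood replicate 3, brain replicate 2 or brain replicate 3, with adjusted p up to 0.0719 and 0.0856 by edgeR. Psmb7 was lost without the same 4 libraries (adjusted p up to 0.163), and with library size alone (0.122). Psmb1 was lost without stroke blood replicate 1, brain replicate 2 or brain replicate 3 (edgeR adjusted p up to 0.0572). Psmb4 was called only without stroke blood replicate 2 and Psmc1 only without brain replicate 1, with edgeR adjusted p up to 0.0983 and 0.162 in the other 5 fits; library size alone ended the call of Psmb4 (0.0875), and upper-quartile scaling (0.164), RLE scaling or no filter on low counts that of Psmc1. Without that filter Psmb7 was lost too, and a block for the replicate number ended the calls of Psmc1, Psmb7 and Psmb4. Psmb5 passed in 1 of the 6 fits, without stroke blood replicate 2 (edgeR adjusted p = 0.0379).

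Within a library, the balance of the particles can be read without any scaling between libraries. The summed level of the 14 core genes was 2981, 3357 and 3168 CPM in brain, 4052, 3304 and 4049.8 CPM in stroke blood and 3279.8, 3109.8 and 3494 CPM in sham blood. The summed level of the 17 genes of the 19S particle was 2515, 2931 and 2757 CPM in brain, 2232, 2171 and 2033 CPM in stroke blood and 2146, 2245 and 2481 CPM in sham blood. Core sums overlapped between all groups, whereas 19S sums in brain were above those of both blood groups. That order of the 19S sums depends on the choice of members by name: with the lid subunit gene Sem1 and the receptor gene Adrm1 added, they were 2929, 3357 and 3158 CPM in brain, 3048, 2754 and 2897 CPM in stroke blood and 2774, 2785 and 3131 CPM in sham blood, and brain overlapped both. The ratio of the 19S sum to the core sum was 0.844, 0.873 and 0.870 in brain (mean 0.862 ± 0.0162 SD), 0.551, 0.657 and 0.502 in stroke blood (0.570 ± 0.0792) and 0.654, 0.722 and 0.710 in sham blood (0.695 ± 0.0361). The 3 brain libraries thus exceeded all 6 blood libraries, and stroke blood replicate 2 overlapped sham blood. With Sem1 and Adrm1 added the ratio was 0.982 to 1.0001 in brain, 0.715 to 0.833 in stroke blood and 0.846 to 0.896 in sham blood, so brain was still above both. Leaving out Psma7, the most abundant core gene, gave 0.987 to 1.01 in brain, 0.606 to 0.813 in stroke blood and 0.813 to 0.889 in sham blood. Leaving out Psmd2 gave 0.753 to 0.773, 0.466 to 0.593 and 0.590 to 0.639 in the same order. As a difference of median log2 levels, brain (-0.998 to -0.77) still lay above stroke blood (-1.50 to -1.10) but overlapped sham blood (-1.04 to -0.96). These ratios were computed after the values were seen and have no test.

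**Figure D3:**
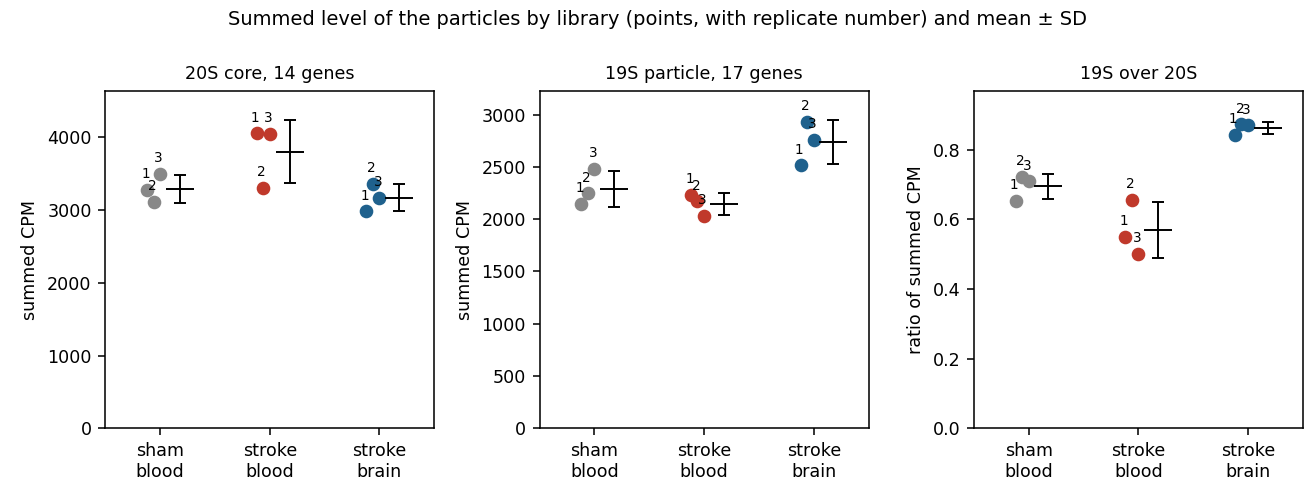
Summed CPM of the 14 core genes and of the 17 genes of the 19S particle, and the ratio of the sums, in each library (points, with replicate number), with the mean and SD of each group (bars). The ratio lies between 0.844 and 0.873 in the brain libraries and at or below 0.722 in the 6 blood libraries.

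Core transcripts are shorter than those of the 19S particle, with a median principal transcript of 1.16 kb against 1.64 kb. Across other protein-coding genes the fold change moved with length: in brain against stroke blood the median log2 fold change was -0.54 for 700 genes under 1 kb, -0.02 for 2445 genes of 1 to 2 kb, 0.18 for 4708 genes of 2 to 4 kb and 0.23 for 3512 longer genes. In the bin of 1 to 2 kb, the 7 core genes had a median of -0.47, all 7 below 0, and the 12 genes of the 19S particle a median of 0.28, with 9 above 0. At 2 to 4 kb, the 2 core genes had a median of -0.36, each below 0. The 5 genes of the 19S particle of that length had 0.33, with 4 above 0. The 5 core genes under 1 kb had a median of -0.41. In stroke blood against sham blood, which uses the same stroke blood libraries, the length trend ran the other way up to 4 kb. Medians of other genes were 0.26 under 1 kb, 0.03 at 1 to 2 kb, -0.15 at 2 to 4 kb and -0.10 at 4 kb or more. Core genes of 1 to 2 kb had a median of 0.26 against 0.03 for other genes of that length. The 5 core genes under 1 kb had 0.17, below the 0.26 of other genes as short. The part of length in the difference between the particles was not tested. This division by length was added after the values were seen.

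**Figure D4:**
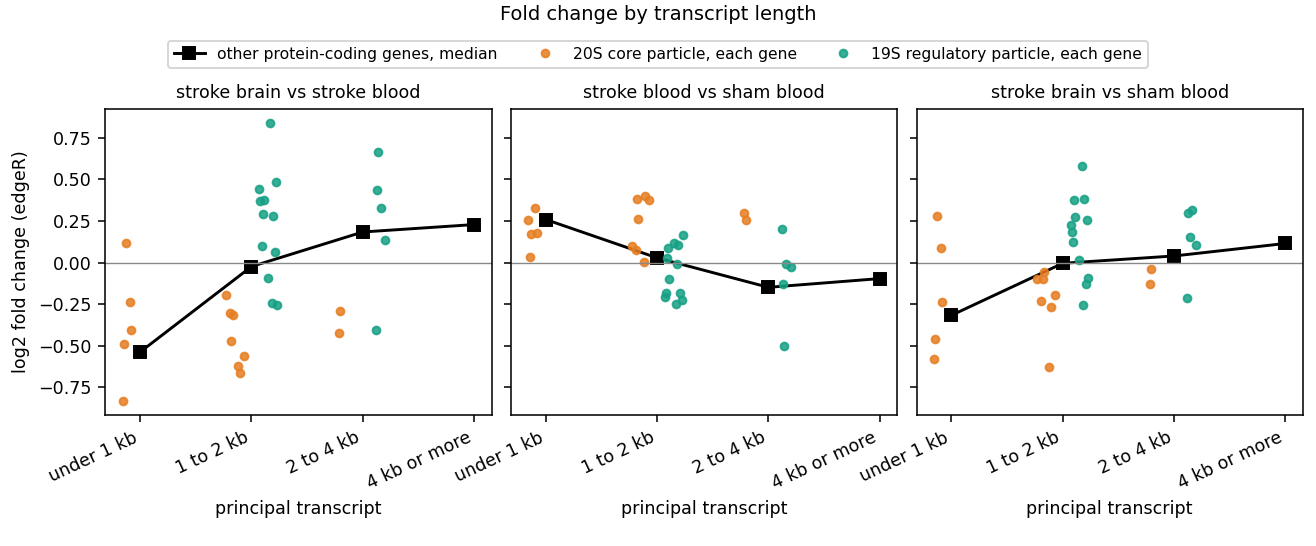
Log2 fold change (edgeR, TMM scaling) by length of the principal transcript in the 3 comparisons, with the median of other protein-coding genes (squares) and each core and 19S gene (points). In brain against stroke blood the 7 core genes of 1 to 2 kb lie below the median of other genes of that length (-0.02), and 9 of 12 genes of the 19S particle lie above 0.

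Markers of other cells and states moved between brain and blood too, and their part in the results on the proteasome genes was not tested. Summed levels below are in CPM, in replicate order, and counts of called genes are for brain against stroke blood by edgeR unless stated. Microglial markers, all 9 detected, summed to 288, 492 and 311 in sham blood, 399, 569.6 and 568 in stroke blood and 1422, 2333 and 4210.2 in brain, where 8 of 9 were called higher. Cx3cr1, which monocytes also express, was the most abundant in every group, Sall1 had no count in either blood group and Siglech had none in stroke blood. Markers of border-associated macrophages (6 genes) summed to 39.0, 29.9 and 29.5, then 27.6, 43.7 and 41.9, and in brain 161, 280.2 and 416, led by Ms4a7, with 5 of 5 tested called higher and Folr2 without a count in sham blood. Macrophage markers (8 genes) summed to 8886, 8264 and 7706, then 8494, 9986 and 8161, and in brain 16455, 19643.5 and 23836, led there by Apoe, with 4 of 8 called higher. Monocyte markers (8 genes) went the opposite way, with 16339, 19372 and 33583, then 16559, 15679 and 14593, and in brain 6173, 7225 and 7137, led by Chil3, with 7 of 8 called lower. Apoe made up much of the macrophage sum, with a mean of 11400.4 CPM in brain and 2663 CPM in stroke blood. Monocyte markers are thus higher in blood, macrophage markers higher in brain in part, and microglial markers present in brain. Among brain libraries, replicate 1 had the lowest sums of microglial and macrophage markers.

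Erythroid markers (6 genes) summed to 1221, 34113 and 30389 in sham blood, 14803, 13766.5 and 18408 in stroke blood and 4.16, 12.4 and 14.5 in brain, led by Hbb-bs; 6 of 6 were called lower, and Slc4a1 had no count in brain. Platelet markers (7 genes) summed to 18.1, 459 and 669.8, then 325, 405 and 324, and in brain 38.3, 61.7 and 84.0, led by Ppbp in blood and Pf4 in brain, with 6 of 7 called lower and Gp5 absent from brain. Sham blood replicate 1 therefore stood far below its group in both lists. Neutrophil markers (8 genes), despite the Ly6G gate, summed to 166, 282 and 487, then 13.03, 294 and 135, and in brain 835, 695 and 1022, led by Retnlg, with 5 of 6 tested called higher. Dendritic cell markers (6 genes, of which Siglech is also in the microglial list) summed to 338, 261 and 102, then 105, 219 and 88.7, and in brain 944, 754 and 828, led by Cd209a, with 5 of 6 called higher. Markers of T and NK cells (8 genes) summed to 165, 458 and 254, then 602, 242 and 205, and in brain 441, 836 and 901, led by Gzma, with 3 of 8 called higher. B cell markers (5 genes) overlapped between brain and stroke blood, with 124, 238 and 223, then 108, 64.0 and 75.7, and in brain 55.7, 47.0 and 91.3, led by Cd79a in sham blood and Cd79b elsewhere; against sham blood, 4 of 5 were called lower in brain. Neural markers (6 of 8 genes above the floor) summed to 253, 284 and 167, then 249, 323 and 187, and in brain 438, 173 and 233, led by Mbp; 2 of 4 tested were higher and 1 lower, Syt1 had no count in any library, and Snap25, Aqp4, Ttr and Enpp2 had none in blood. Cycling markers (7 genes) summed to 84.4, 82.6 and 80.8, then 84.7, 72.2 and 58.6, and in brain 233, 189 and 165, led by Pcna, with 6 of 7 called higher.

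Stroke blood was compared with sham blood to ask what the lesion changes in circulating cells. No member passed the test in this comparison, and the median log2 fold change of the 46 members was 0.07. That median lay between 0.02 and 0.10 with 1 library left out, and was 0.03 with library size alone and 0.15 with upper-quartile scaling. By edgeR 0 of the 46 members were called in either direction, and DESeq2 also called 0 (against 112 genes higher and 78 lower of 12664), while 5 (10.9%) had an unadjusted p below 0.05 by edgeR, 3 higher and 2 lower. Of all 12664 genes tested, edgeR called 1 (0.00790%), which also passed the fold rule (0.00790%), and 1581 (12.5%) had an unadjusted p below 0.05. All 14 core genes had an estimate above 0 (12 with library size alone, where Psmb5 and Psmb7 turned), where 46.7% of all genes tested did. Their median log2 fold change was 0.26, and 1 of the 14 had an unadjusted p below 0.05 by edgeR. The 19S genes had a median of -0.02 (0.05 with upper-quartile scaling), with 6 of 17 above 0 (5 with library size alone and 9 with upper-quartile scaling), and the median over all genes was -0.03. For 4 members all stroke blood libraries were above all sham blood libraries on the CPM scale, where 8.23% of all genes were, and for 6 they were all below, where 10.5% were. Leaving out sham blood replicate 1 gave 0 calls as well.

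The 4 higher members were the core gene Psmb2 and the activators Psme1, Psme2 and Psme4, the first named here after its values were seen. Psme2 stood at 415, 317 and 458 CPM in stroke blood and at 313, 311 and 272 CPM in sham blood. Stroke blood replicate 2 only just passed the sham libraries, and the log2 fold change was 0.45 ± 0.18 (SE; edgeR quasi-likelihood, adjusted p = 0.37). Psme1 stood at 313, 262 and 291 CPM in stroke blood and at 239.6, 257 and 216 CPM in sham blood, or 0.32 ± 0.15 in log2 fold change (edgeR adjusted p = 0.419). The sham values of Psme4 were nearly identical at 24.2, 23.6 and 23.9 CPM, and all lay below those of stroke blood given above. Its log2 fold change was 0.69 ± 0.22 (edgeR adjusted p = 0.315). Psme3 had -0.27 ± 0.19 and Psmf1 -0.02 ± 0.17 (0.06 with upper-quartile scaling), with edgeR adjusted p of 0.568 and 0.967. Of the catalytic genes, Psmb6 had 0.17 ± 0.16, Psmb5 0.03 ± 0.21 (-0.01 with library size alone) and Psmb7 0.00 ± 0.20 (-0.03 with library size alone), with edgeR adjusted p of 0.664, 0.955 and 0.999. The 6 lower members, Psmd5 and the 19S genes Psmc1, Psmc2, Psmd6, Psmd7 and Psmd12, had log2 fold changes of -0.47, -0.21, -0.19, -0.19, -0.23 and -0.25, of which Psmd5 had the smallest edgeR adjusted p (0.348).

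Brain against sham blood uses the same brain libraries as the first comparison and the same sham libraries as the second, so its values stand beside theirs and not as separate evidence. Psmd12 and Psma7 were the called members. By edgeR 1 of 46 members was called higher, where 12.1% of 13020 genes tested were, and 1 lower, where 7.68% were. With the fold rule edgeR and DESeq2 each called 0 members, as no estimate passed 1 in size. That compares with 13.4% of all genes by edgeR and 2162 of 13020 by DESeq2. An unadjusted p below 0.05 by edgeR was found for 8 members (17.4%) and for 34.3% of all genes. For Psmd12 the log2 fold change was 0.58 ± 0.14 (SE; 1.5-fold; edgeR quasi-likelihood, adjusted p = 0.0225), and for Psma7 it was -0.58 ± 0.12 (1.49-fold lower; adjusted p = 0.0161). In both, the 3 brain libraries lay apart from the 3 sham libraries. Without sham blood replicate 1 the counts of called members were also 1 and 1. Without brain replicate 1 they were 1 higher and 3 lower, where 1509 and 1154 of 13556 genes were. Psmd12 was lost without sham blood replicate 2 or 3 or brain replicate 2 or 3 (edgeR adjusted p up to 0.0883) or with a block for the replicate number (0.0523), and Psma7 without brain replicate 2 or 3 (up to 0.062). DESeq2 called 1 member higher and 4 lower (10.9%), and 26.5% of all genes.

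Psmg3 and Psmg4 had log2 fold changes of -0.74 ± 0.24 and -0.61 ± 0.19, lower in every brain library than in every sham library but not called by edgeR (adjusted p of 0.0684 and 0.0546). Both passed by DESeq2 (adjusted p of 0.0256 and 0.0246), and Psmg4 also with upper-quartile scaling (0.0404). Core genes lay closer to 0 than against stroke blood, with a median log2 fold change of -0.16. Of the 14, 12 were below 0, where 6427 of 13020 genes tested were. Library size alone, which moved the median of all genes by 0.12, gave 8 core genes below 0 and a core median of -0.04. With upper-quartile scaling the core median was -0.23. The 19S genes had a median of 0.18. Of the 17, 13 were above 0 (14 with library size alone and 12 with upper-quartile scaling), where 50.6% of all genes tested were. The median was -0.03 over all members (0.09 with library size alone and 0.08 without brain replicate 1) and 0.01 over all genes. The 19S median was 0.30 without brain replicate 1, 0.30 with library size alone and 0.11 with upper-quartile scaling. On the CPM scale 14 members were higher in every brain library than in every sham library, where 27.4% of all genes were, and 5 were lower, where 14.2% were. Of these, 10 higher ones were 19S genes. Psmb7 and Psmb5 had log2 fold changes of -0.63 ± 0.19 and -0.46 ± 0.21, with edgeR adjusted p of 0.0552 and 0.168; Psmb7 passed with upper-quartile scaling (0.0402), by DESeq2 (0.0232) and without brain replicate 1 (edgeR, 0.0461). Psmb6 had 0.28 ± 0.13 (edgeR adjusted p = 0.179), and its brain libraries were all above those of sham blood (218, 233 and 257 CPM). Psme1 and Psme2 had 0.21 ± 0.12 and 0.25 ± 0.15, Psme3 -0.47 ± 0.20, Psme4 -0.28 ± 0.21 and Psmf1 0.18 ± 0.16, none called by edgeR (adjusted p of 0.283, 0.286, 0.141, 0.384 and 0.479). Psme3 passed without brain replicate 1 (edgeR adjusted p = 0.0482).

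The constitutive catalytic subunits were next set beside the inducible ones that replace them in the immunoproteasome. Ratios are of CPM per kb of principal transcript, within each library, and 3 libraries against 3 cannot give an exact two-sided permutation p below 0.1. Psmb5 over Psmb8 was 0.369, 0.465 and 0.481 in brain, 0.600, 0.489 and 0.489 in stroke blood and 0.534, 0.740 and 0.942 in sham blood. Brain lay below both blood groups, with an exact permutation p of 0.1 against each (0.225 after Benjamini-Hochberg adjustment over 9 tests). Psmb6 over Psmb9 went the other way, at 3.32, 2.72 and 2.97 in brain, 2.14, 2.36 and 2.35 in stroke blood and 2.75, 2.42 and 2.84 in sham blood. Stroke blood lay below both other groups without overlap (exact permutation p = 0.1, adjusted 0.225), and brain overlapped sham blood (p = 0.3 by the same exact test). Psmb7 over Psmb10 was 0.144, 0.0835 and 0.104 in brain, 0.117, 0.111 and 0.0940 in stroke blood and 0.156, 0.116 and 0.149 in sham blood, overlapping in each comparison. No ratio passed a test, and the level of Psmb7 is uncertain as above. That of Psmb5 is uncertain too. Near copies cover 88.4% of its transcript, and Mir686 on the same strand overlaps 12.1% of its principal transcript.

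**Figure D5:**
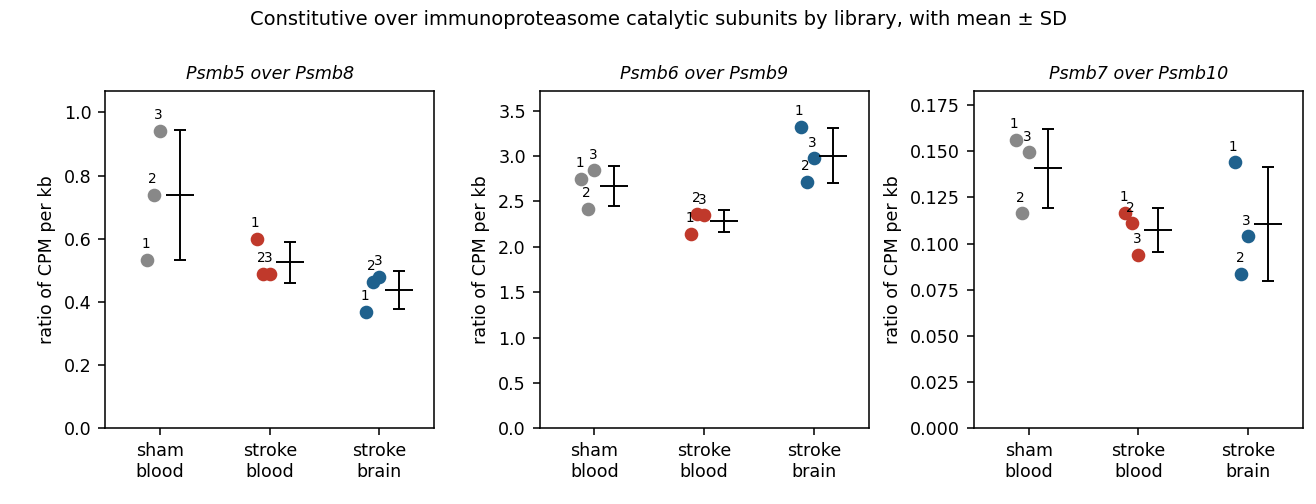
Ratio of each constitutive catalytic subunit to the inducible subunit that replaces it, in CPM per kb of principal transcript, in each library (points, with replicate number), with the mean and SD of each group (bars). Psmb5 over Psmb8 is lowest in the brain libraries (0.369 to 0.481), while Psmb6 over Psmb9 is lowest in stroke blood (2.14 to 2.36).

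Of the inducible genes themselves, 1 of 3 was called in brain against stroke blood. Psmb10 stood at 195, 250.2 and 233 CPM in brain and at 346, 270.4 and 328 CPM in stroke blood, without overlap, a log2 fold change of -0.63 ± 0.17 (SE; edgeR quasi-likelihood, adjusted p = 0.0194). It was lost without stroke blood replicate 1 or 3 or brain replicate 3 (edgeR adjusted p up to 0.0702) and with library size alone (0.0519). Psmb8 and Psmb9 had -0.23 ± 0.17 and -0.27 ± 0.19 (edgeR adjusted p of 0.333 and 0.303). In stroke blood against sham blood Psmb8, Psmb9 and Psmb10 had 0.50, 0.40 and 0.39, and in brain against sham blood 0.26, 0.12 and -0.25, with edgeR adjusted p of at least 0.229. In the former comparison all 3 had an unadjusted p below 0.05 by edgeR, where 12.5% of all genes did. Psmb8 and Psmb10 were higher in every stroke blood library than in every sham blood library, while Psmb9 overlapped.

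Other genes of the pathway were read from 7 lists of 44 genes, the 3 inducible genes included; 1 symbol, Paaf1, matched no gene, and 43 genes were tested. In brain against stroke blood 9 were called higher and 4 lower by edgeR, where 17.5% and 13.1% of all genes tested were. Among subunits and partners with other names, 1 of 9 was higher and 2 were lower. Akirin2, which carries proteasomes into the nucleus, rose by 1.85 ± 0.29, the small lid subunit gene Sem1 fell by 1.26 ± 0.19 and the core maturation factor Pomp by 0.73 ± 0.15 (log2 with SE; edgeR adjusted p of 0.00173, 0.0012 and 0.00655). Sem1 and Pomp thus lay on the side of the core genes. Of 3 ubiquitin genes, 1 was called: Rps27a, a fusion of ubiquitin with a ribosomal protein, fell by 1.78 ± 0.26 (edgeR adjusted p = 0.00106). Neither of the 2 genes of ubiquitin activation was called by edgeR or DESeq2, and 0 had an unadjusted p below 0.05; Uba6 had -0.42 ± 0.19 (edgeR adjusted p = 0.129), which passed with upper-quartile scaling (0.0488).

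Of 10 shuttle and segregase genes, 2 were higher, Faf1 by 1.81 ± 0.23 and Ubqln1 by 0.54 ± 0.17 (edgeR adjusted p of 0.000545 and 0.0416). Ubqln1 was lost without stroke blood replicate 1 or 3 or brain replicate 2 or 3 (edgeR adjusted p up to 0.161) with upper-quartile scaling (0.101) and with no filter on low counts. Of 9 regulators of proteasome genes, 3 were higher: Nfe2l2 by 0.80 ± 0.18, Nfe2l1 by 0.82 ± 0.27 and Stat3 by 0.55 ± 0.15 (edgeR adjusted p of 0.00929, 0.0448 and 0.0235). Nfe2l1 was called only without stroke blood replicate 2 (edgeR adjusted p up to 0.14 in the other 5 fits), Stat3 was lost without stroke blood replicate 1 or brain replicate 2 or 3 (up to 0.116), and upper-quartile scaling ended both calls (0.0717 and 0.0632). The part of these regulators in the levels of the members was not tested. Of 7 cytosolic heat shock genes, 3 were higher, with Hspa1a at 2.75 ± 0.34, Hsph1 at 0.99 ± 0.21 and Dnajb1 at 0.75 ± 0.19 (edgeR adjusted p of 0.000475, 0.00706 and 0.0149). Dnajb1 was lost without stroke blood replicate 1 or 3 (edgeR adjusted p up to 0.0621), and Hsph1 in the fit of all 9 libraries (0.0934). Hspa1a rose from 6.56, 5.89 and 9.07 CPM in stroke blood to 73.9, 30.7 and 57.5 CPM in brain. The part of the enzymatic dissociation in these rises cannot be told apart from that of the tissue. Pomp, Ubqln1, Nfe2l1, Stat3, Hsph1 and Dnajb1 were chosen after their values were seen.

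In stroke blood against sham blood edgeR called 0 of the 43 genes (0.00790% of all genes), with 11 at an unadjusted p below 0.05 (12.5% of all genes), and DESeq2 called 2 (1.5% of all genes), Ddi2 and Hsph1, both with lower estimates after stroke, at -0.87 and -1.87 by edgeR. Hsph1 was highest in sham blood replicate 1 (139 CPM against 63.2 and 33.8 in the other sham libraries), and its estimate ranged from -2.24 to -1.15 with 1 library left out. The smallest edgeR adjusted p in the other lists were those of Psmb8 (0.33), Fbxo7 (0.408), Rps27a (0.312), Uba1 (0.574) and Faf1 (0.39). In brain against sham blood edgeR called 2 higher (12.1% of all genes were), Akirin2 (1.82) and Nfe2l2 (0.72), and 2 lower (7.68% of all genes), Sem1 (-0.88) and Rps27a (-1.03), with adjusted p of 0.0142, 0.0287, 0.0063 and 0.0315. Of these 4, Sem1 alone was called whichever library was left out. By edgeR, Akirin2 was lost without sham blood replicate 3 or brain replicate 2 (adjusted p up to 0.056), Rps27a without sham blood replicate 1 or 3 or brain replicate 2 or 3 (up to 0.107) or with library size alone (0.0507), and Nfe2l2 without sham blood replicate 2 or 3 or brain replicate 1 or 2 (up to 0.108). Among the uncalled lists there, the smallest adjusted p belonged to Uba1 (0.206), Ufd1 (0.171) and Hspa1a (0.0509; 0.00198 by DESeq2).

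The members share little in position. They lie on 16 chromosomes of GRCm38, with 10 on chromosome 11, 6 on chromosome 2 and 5 on chromosome 14. Psme1 and Psme2 are neighbours on chromosome 14, with 5911 bases between them, and both were higher in every stroke blood library than in every sham blood library. Psmb4 and Psmd4 lie 145732 bases apart on chromosome 3, and the former was called lower in brain while the latter was not. Exons of 10 members overlap a gene on the opposite strand and those of 4 a gene on the same strand. Besides Psmb7, such overlaps cover 29.8% of the principal transcript of Psmc3ip, 26.8% of Psmg3, 17.2% of Psmd13 and 12.1% of Psmb5. Near copies elsewhere in the genome were found for 13 members, and they cover up to 98.2% of a member's transcript (Psmd2). Counts on these copies came to at most 2.88% of the member's own, apart from Psme2b, whose near copy is Psme2 itself. How reads that match both a member and its copy were counted is not stated. Low counts on the copies therefore cannot show how many reads of the member were lost. Called members other than those whose promoters are shown lie at chromosome 16, 20651652 to 20663414 (Psmd2), chromosome 13, 34162964 to 34178173 (Psmg4), chromosome 17, 15475721 to 15498276 (Psmb1), chromosome 2, 38588036 to 38644087 (Psmb7), and chromosome 3, 94884093 to 94886961 (Psmb4).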

How the data were processed

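Read quality (FastQC), mapping (HISAT2, mouse build GRCm38) and gene counting (HTSeq) were done by the authors in Chipster, and the deposited values are raw counts per Ensembl gene, without normalization. Versions, annotation release and strand setting were not given in the sources used here. Symbols, biotypes, overlaps and transcript lengths came from GENCODE M21. Members and lists were chosen with earlier results of these data known.

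Each pair of groups was compared with edgeR 4.0.16 in R 4.3.3 (TMM, default filter on low counts, quasi-likelihood test, Benjamini-Hochberg adjustment over all genes tested). Calls were an adjusted p below 0.05, and the same with an absolute log2 fold change above 1. The standard error is the log2 fold change over the square root of F. Libraries were grouped by their labels. Levels are CPM, per kb of merged exons or, added after seeing the data, of the principal transcript. Floors cover counting error only, since reads carry no molecular identifiers. Summaries used Python 3.11.15, numpy 2.4.6, pandas 2.3.3 and matplotlib 3.10.9.

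Full statistics were given by rule for up to 8 called rises and 8 called falls, the catalytic and inducible subunits, activators and inhibitor, and in each of 7 pathway lists for genes past both thresholds or else the smallest adjusted p; the 12 marker lists were summed. Of the planned lists, 3 genes are not reported here. Alternatives were DESeq2 1.42.0, leaving out each library, a threshold of 0.01, a block for replicate numbers, 1 fit of all 9 libraries, scaling by upper quartile, by RLE or by library size only, no filter, a filter at a mean of 50 counts and, added later, 19S sums with Sem1 and Adrm1.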

Additional observations from a re-analysis of the deposited data

How the results depend on the processing

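With 3 libraries a group, calls near the threshold depend on single libraries. In brain against stroke blood, leaving out each library in turn gave between 1 and 5 members called higher, between 2 and 11 lower and between 0 and 2 past the fold rule; in brain against sham blood it gave 0 to 1 higher and 0 to 3 lower. Members called in stroke blood against sham blood numbered 0 under every alternative run, DESeq2 included (5 at an unadjusted p below 0.05 by edgeR).

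For brain against stroke blood, library size only gave 8 higher and a median of 0.0523, upper-quartile scaling gave 12 lower, 2 past the fold rule and a median of -0.25, the fit of all 9 libraries gave 1 past the fold rule, and an adjusted p below 0.01 gave 1 higher and 2 lower. For brain against sham blood, library size only gave 3 higher and a median of 0.0888, the replicate block 0 higher, DESeq2 4 lower, upper-quartile scaling and the fit of all 9 libraries 3 lower each, and an adjusted p below 0.01 gave 0 higher and 0 lower. The cause was not tested, beyond the stricter threshold and the smaller number of libraries. Neither the labels nor the methods say that equal replicate numbers pair libraries. Same-numbered libraries had correlations of residuals between -0.07 and 0.066 over genes, which are not independent of each other. With 3 libraries a group and brain libraries pooled from 5 mice, these correlations cannot decide whether libraries are paired. With the number as a block, 2 members were called higher and 4 lower in brain against stroke blood.

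Changes of sign were all in genes that were not called. Other members with an estimate near 0 changed sign with the scaling too, as the counts above and below 0 show. Among the genes given full statistics by rule, those in brain against stroke blood were Psmb6 at -0.0369 (upper quartile) and Psme1 at 0.0461 (library size only). In stroke blood against sham blood those were Psmb5 at -0.00831 (library size only), Psmb7 at -0.0261 (no filter), -0.0345 (library size only) and -0.00123 (replicate block), and Psmf1 at 0.00307 (mean of at least 50 counts), 0.0558 (upper quartile) and 0.0117 (all 9 libraries). With a library left out, Psmb6 in brain against stroke blood ranged from -0.0406 to 0.18, Psmb9 in brain against sham blood from -0.0033 to 0.25, and in stroke blood against sham blood Psmb5 from -0.10 to 0.17, Psmb7 from -0.16 to 0.0784 and Psmf1 from -0.11 to 0.0442. The cause was not tested. The order of levels between genes was recomputed without division by length and per principal transcript. The ratio of highest to lowest stayed between 21.5 and 30.0 for core genes and between 4.77 and 6.92 for 19S genes.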
